A study of Mus musculus with 8 samples.

Results

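The BCL2 family of apoptosis regulators was followed in mouse ovarian tumours through 10 genes chosen by name. They are the pro-survival genes Bcl2, Bcl2l1 and Mcl1, the pore-forming genes Bax and Bak1, and the BH3-only genes Bbc3, Pmaip1, Bcl2l11, Bid and Bmf. All 10 were on the array, with 12 of its 39429 probes, and all 10 were among the 25535 genes tested. The tumours arose spontaneously in untreated female mice of the strain C57BL/6JTgMISIIR-TAg. Of the 8 tumours, 4 came from Nedd9-WT mice, which have normal Nedd9, and 4 from Nedd9-null mice. All 8 mice carry the MISIIR-TAg transgene, in which the Amhr2 (MISIIR) promoter drives SV40 T antigen, so there is no group without T antigen. T antigen is thus made where that promoter is active. The labels place the tumour mass near 2000 mm3, and they give neither the age of the mice nor the exons that the null allele lacks.

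BCL2 proteins decide whether the outer membrane of the mitochondrion is opened, the committed step of the intrinsic route to apoptosis. BAX and BAK form the pores, BCL2, BCL-XL (from Bcl2l1) and MCL1 hold them in check, and BH3-only proteins release that check or activate the pore formers directly. Several BH3-only genes are known targets of p53, which T antigen binds and inactivates. NEDD9, the protein whose gene differs between the groups, is a scaffold that binds focal adhesion kinase and SRC.

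3 of the probes are shown. The Bcl2 probe reads a member whose call turned on 1 tumour, the Bcl2l1 probe is the upstream one of its gene, whose 2 probes separated the genotypes differently, and the Bcl2l11 probe joins parts of the gene that lie apart in the genome. They are given 5′ to 3′ in the sense of the transcript, with no part picked out in capitals.
Bcl2: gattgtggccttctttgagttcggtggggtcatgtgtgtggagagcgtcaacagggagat
Bcl2l1: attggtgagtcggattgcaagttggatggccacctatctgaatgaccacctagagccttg
Bcl2l11: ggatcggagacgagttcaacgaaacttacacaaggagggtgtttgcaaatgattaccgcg
In the build of the files, mm9, the Bcl2 probe lies at chr1:108608970-108609029 and the Bcl2l1 probe at chr2:152655185-152655244, both on the minus strand. The Bcl2l11 probe lies on the plus strand, and its 60 bases span chr2:127972893-127983988, a distance of 11096 bases that holds at least 1 intron. The other Bcl2l1 probe lies 48781 bases away, at chr2:152606404-152606463. Exons and UTRs were not assigned here.

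The remaining members are placed as follows in mm9. The Mcl1 probes lie on chromosome 3 at 95466855 to 95466914 and at 95465543 to 95465602, on the plus strand. The Bax probe is on chromosome 7 at 52717122 to 52717181 (minus strand), and the Bbc3 probe on the same chromosome at 16903403 to 16903462 (plus strand). Bak1 was read at 27156807 to 27156866 of chromosome 17, Bid at 120843464 to 120843523 of chromosome 6 and Bmf at 118354496 to 118354555 of chromosome 2, all on the minus strand. Pmaip1 was read at 66625088 to 66625147 of chromosome 18, on the plus strand. All 12 probes were well above background on all 8 arrays, and 0 of them were saturated.

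A level is the log2 signal of a gene after subtraction of the array's 75th percentile. Means carry the SD over n = 4 tumours of a genotype. A difference is the Nedd9-null mean less the Nedd9-WT mean, and its standard error (SE) is that of limma. Levels are comparable between tumours for 1 gene, and not between genes. Over all arrays, 72.9% to 84.6% of probes were well above background. Nedd9 itself had a level of 1.28 ± 0.42 in the Nedd9-WT group and of -3.23 ± 0.86 in the Nedd9-null group, with no overlap. Nedd9-null replicate 1 stood apart from the other Nedd9-null tumours. Over all genes its correlation was 0.938 to 0.973 with Nedd9-WT tumours and 0.886 to 0.920 with its own group, while the other 3 correlated at 0.977 to 0.984. The members' differences are therefore given with and without it. This tumour was singled out from the same values for its likeness to Nedd9-WT tumours. Calls made without it depend on that choice and are not a separate test. Each genotype lay on 1 slide of its own, so the slide cannot be told apart from the genotype.

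The comparison asked whether the family differs between Nedd9-null and Nedd9-WT tumours. The BH3-only gene Pmaip1 had the widest difference, with a mean 8.73-fold lower in Nedd9-null tumours, followed by the pro-survival gene Bcl2, 1.93-fold lower. Neither passed the threshold, an adjusted p of 0.05 (limma, Benjamini-Hochberg over all genes), with all 8 arrays. Both passed it when Nedd9-null replicate 1, the tumour singled out from these same data, was left out. The other 8 members differed by 0.65 log2 units or less and did not pass in either fit.

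With all 8 arrays, 0 of the 10 members passed, where 0.0666% of all genes did (17 of 25535; 0.0587% higher and 0.00783% lower). An unadjusted p under 0.05 was found for 2 members, where 23.9% of all genes had one. Without Nedd9-null replicate 1, 2 of 10 members passed, both lower, against 18.7% of all genes in either direction (10.3% higher, 8.37% lower), so the share of members called in either direction was near the background. For 2 members the genotypes had no overlapping values, lower for Pmaip1 and higher for Bcl2l1, and the same held for 12.7% of all genes (5.58% lower, 7.16% higher). Of the 10 differences 4 were positive, where 52.2% of all genes had a positive one. Their median was -0.20, beside 0.03 over all genes.

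**Figure D1:**
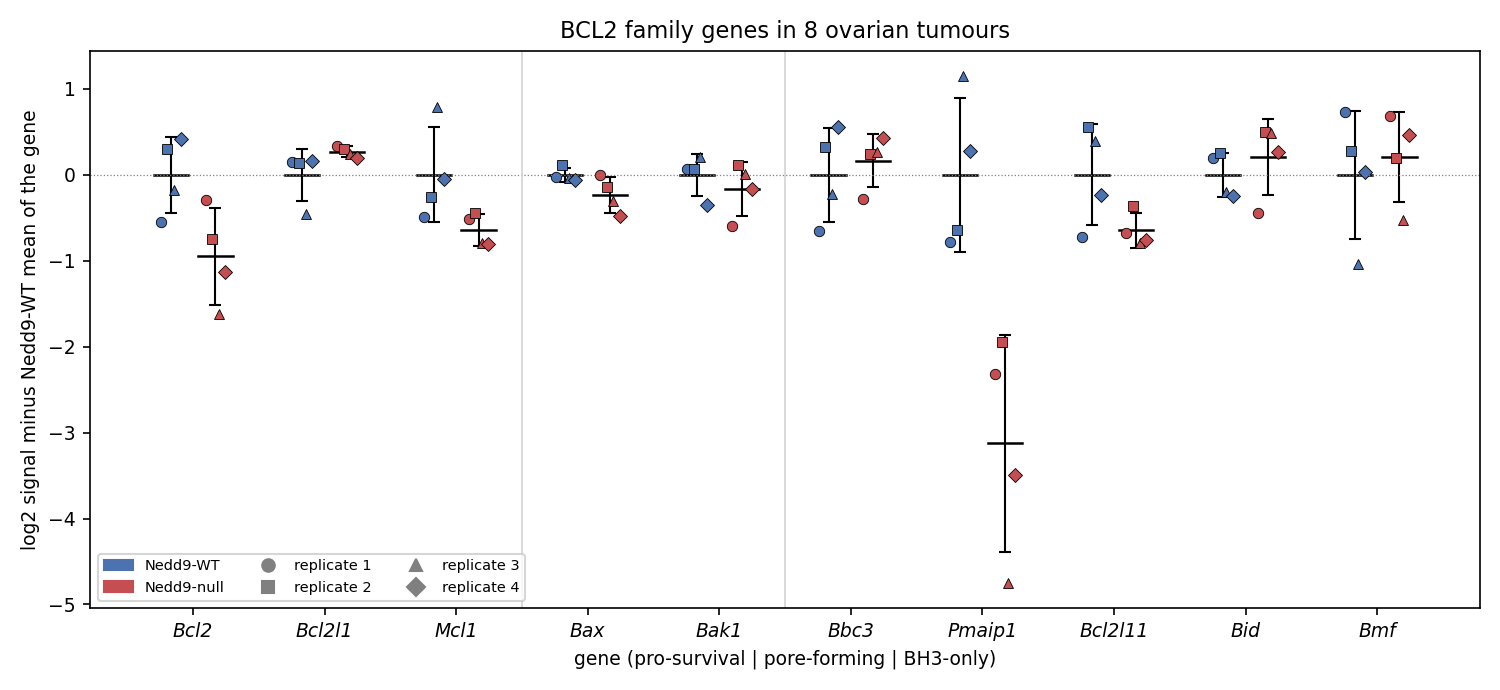
Log2 signal of the 10 genes in each tumour, with the mean of the Nedd9-WT tumours of each gene set to 0; colours mark the genotype, shapes the replicate, and bars the mean ± SD (n = 4). Pmaip1 lies at -3.13 on average in Nedd9-null tumours with no overlap, and 8 of the other 9 genes overlap.

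Among the pro-survival genes, Bcl2, the founding member and a guard of the mitochondrial membrane, was -0.76, 0.09, -0.39 and 0.20 in Nedd9-WT replicates 1 to 4. It was -0.51, -0.96, -1.84 and -1.34 in Nedd9-null replicates 1 to 4. Nedd9-null replicate 1 lay inside the Nedd9-WT range, and the other 3 Nedd9-null tumours lay below all Nedd9-WT tumours. The difference was -0.95 (SE 0.34, 95% confidence interval -1.73 to -0.17), and it did not pass (limma adjusted p = 0.151). Without Nedd9-null replicate 1 it was -1.17 (SE 0.31) and passed (limma adjusted p = 0.0427). Leaving out single arrays gave -1.17 to -0.72.

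Mcl1, a short-lived protein that holds BAK in check, was measured by 2 probes that lie 1312 bases apart. The brighter gave 3.61, 3.84, 4.88 and 4.05 in Nedd9-WT replicates 1 to 4 and 3.58, 3.65, 3.30 and 3.29 in Nedd9-null replicates 1 to 4. The Nedd9-null tumours sat close together at the low end, and 1 Nedd9-WT tumour, replicate 3, stood high. The difference was -0.64 (SE 0.28, limma adjusted p = 0.219) on this probe and -0.63 (SE 0.30, limma adjusted p = 0.246 over all 31783 kept probes, of which 0.0535% passed) on the other. The first was -0.68 without Nedd9-null replicate 1 and -0.38 without Nedd9-WT replicate 3, and the genotypes overlapped in each case.

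Bcl2l1, whose main product BCL-XL guards against both pore formers, was 4.27, 4.26, 3.67 and 4.29 in Nedd9-WT replicates 1 to 4. In Nedd9-null replicates 1 to 4 it was 4.46, 4.42, 4.37 and 4.32. Every Nedd9-null value was above every Nedd9-WT value by a narrow margin, and Nedd9-WT replicate 3 was far below the rest. The difference was 0.27 (SE 0.18, interval -0.15 to 0.69) and did not pass (limma adjusted p = 0.406). It was 0.25 without Nedd9-null replicate 1 and 0.12 without Nedd9-WT replicate 3. The upstream probe printed above gave -1.27, -1.30, -1.79 and -0.95 in Nedd9-WT replicates 1 to 4. For Nedd9-null replicates 1 to 4 it gave -0.96, -0.95, -1.23 and -1.02, with a difference of 0.29 (SE 0.20). On that probe the genotypes overlapped, so the separation was not shared by both probes.

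**Figure D2:**
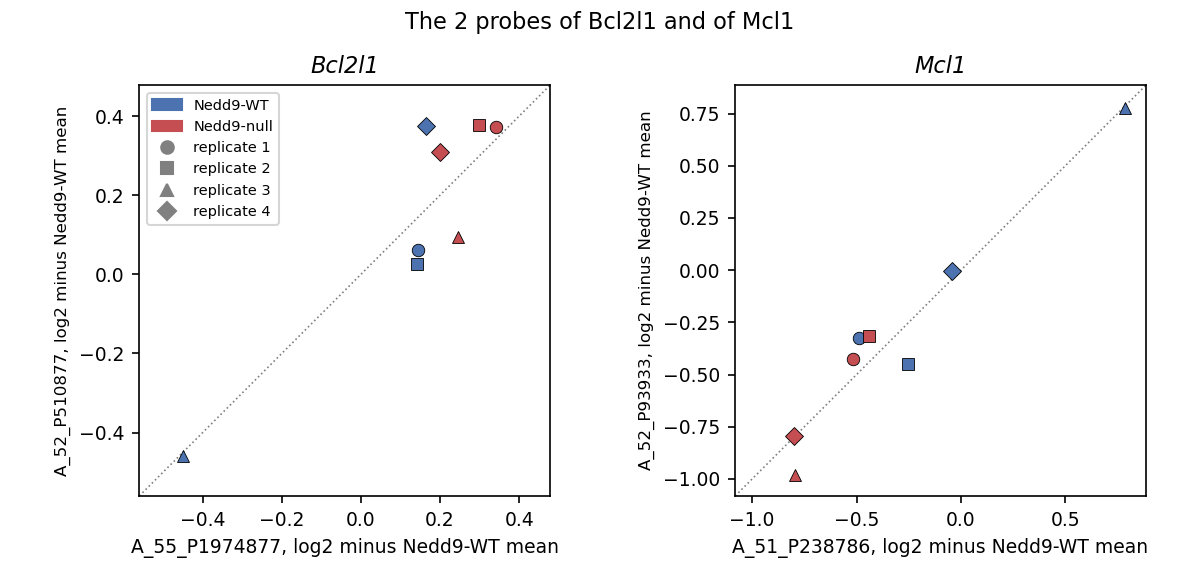
Levels of Bcl2l1 (left) and Mcl1 (right) on their 2 probes, each relative to its Nedd9-WT mean (log2), with 1 point per tumour and the line of equal values dotted. The probes differ by at most 0.21 for Bcl2l1 and 0.20 for Mcl1 in any tumour, and Nedd9-WT replicate 3 is the lowest for Bcl2l1 and the highest for Mcl1 on both.

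Neither of the pore-forming genes passed the threshold, and both had lower means in Nedd9-null tumours. Bax, which moves from the cytosol to the mitochondrion when activated, was 1.58, 1.72, 1.57 and 1.54 in Nedd9-WT and 1.60, 1.47, 1.31 and 1.12 in Nedd9-null replicates 1 to 4. Nedd9-null replicates 2 to 4 lay below all Nedd9-WT tumours, and replicate 1 lay among them. The difference was -0.23 (SE 0.16, limma adjusted p = 0.411), with a 95% confidence interval of -0.59 to 0.13, and -0.31 without Nedd9-null replicate 1. Bak1, the pore former that resides in the membrane, was 1.95, 1.95, 2.10 and 1.54 in Nedd9-WT and 1.28, 2.00, 1.89 and 1.72 in Nedd9-null replicates 1 to 4. Here the lowest tumour was Nedd9-null replicate 1, and the others overlapped widely. The difference of -0.16 (interval -0.65 to 0.33) was -0.016 without that tumour.

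Among the BH3-only genes, Pmaip1, which encodes NOXA, a protein that binds MCL1 and promotes its breakdown, was -1.41, -1.26, 0.53 and -0.34 in Nedd9-WT replicates 1 to 4. It was -2.93, -2.57, -5.36 and -4.11 in Nedd9-null replicates 1 to 4. All Nedd9-null tumours were below all Nedd9-WT tumours, replicate 1 included, and within the Nedd9-null group replicates 3 and 4 were lowest. In processed signal, it ranged from 1082 to 4232 (Nedd9-WT) and from 78.8 to 581 (Nedd9-null). The signal was low in Nedd9-null replicates 3 and 4, at 78.8 and 205. The difference was -3.13 (SE 0.69, interval -4.72 to -1.53, limma adjusted p = 0.0842). Without Nedd9-null replicate 1 it was -3.40 (SE 0.74) and passed (limma adjusted p = 0.0204). Leaving out other single arrays, it was -3.52 to -2.59 and did not pass. With all arrays and normexp background correction, the difference was -2.78 and did not pass.

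Bcl2l11 encodes BIM, a broad activator that binds all pro-survival proteins. It was -3.85, -2.57, -2.73 and -3.36 in Nedd9-WT and -3.80, -3.48, -3.92 and -3.89 in Nedd9-null replicates 1 to 4. Its signal was low in every tumour, at 174 to 536, and Nedd9-WT replicate 1 lay among the Nedd9-null tumours. The difference was -0.65 (SE 0.30, limma adjusted p = 0.234), and -0.64 without Nedd9-null replicate 1.

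Bbc3, Bid and Bmf had slightly higher means in Nedd9-null tumours, and the genotypes overlapped for each. Bbc3, the gene of PUMA and a p53 target, was 0.36, 1.34, 0.78 and 1.56 in Nedd9-WT and 0.73, 1.26, 1.28 and 1.43 in Nedd9-null replicates 1 to 4. Its lowest and highest values were both in Nedd9-WT tumours. The difference of 0.17 (interval -0.53 to 0.86) was 0.31 without Nedd9-null replicate 1 and changed sign with the array median as the scale (-0.024) and without Nedd9-WT replicate 1 (-0.051).

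Bid, which caspase-8 cleaves to link death receptors to mitochondria, was -0.83, -0.76, -1.22 and -1.26 in Nedd9-WT replicates 1 to 4. In Nedd9-null replicates 1 to 4 it was -1.46, -0.51, -0.53 and -0.75. Nedd9-null replicate 1 was the lowest tumour, and the other 3 were the highest of all. The difference was 0.20 (SE 0.26) with all arrays and 0.42 (SE 0.19, limma adjusted p = 0.179) without replicate 1.

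Bmf, a BH3-only gene linked to loss of cell attachment, was 2.20, 1.75, 0.44 and 1.51 in Nedd9-WT and 2.16, 1.67, 0.95 and 1.94 in Nedd9-null replicates 1 to 4. Replicate 3 was the lowest in each genotype, and the labels do not say whether a shared number pairs mice. The difference of 0.20 (SE 0.42, interval -0.76 to 1.17) was 0.045 without Nedd9-null replicate 1 and turned to -0.14 without Nedd9-WT replicate 3 and to -0.13 with array weights.

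**Figure D3:**
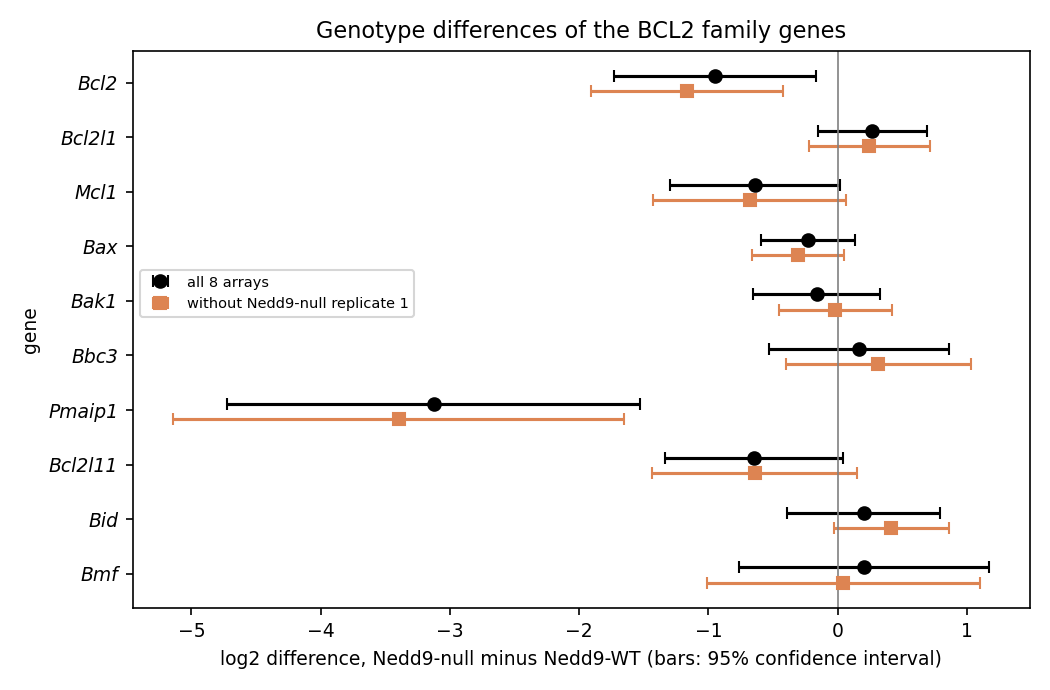
Log2 difference (Nedd9-null minus Nedd9-WT) of each gene with its 95% confidence interval, with all 8 arrays (black) and without Nedd9-null replicate 1 (orange). Intervals of Bcl2 and Pmaip1 lie below 0 in both fits, although with all arrays neither gene passes after adjustment over 25535 genes.

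Single tumours differed from their group in more than 1 member. Nedd9-WT replicate 3 had the highest level of 3 members (Mcl1, Bak1 and Pmaip1) and the lowest of 2 (Bcl2l1 and Bmf) among the 8 tumours. Nedd9-null replicate 3 had the lowest level of 3 members, Bcl2, Pmaip1 and Bcl2l11. Nedd9-null replicate 1 was lowest for Bak1 and Bid and highest for Bcl2l1.

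The balance of a pore former and a pro-survival gene was compared as their log2 difference within each array, relative to the Nedd9-WT mean. Bax against Bcl2l1 was -0.17, -0.022, 0.42 and -0.23 in Nedd9-WT and -0.34, -0.44, -0.55 and -0.68 in Nedd9-null replicates 1 to 4. All Nedd9-null tumours lay below all Nedd9-WT tumours, by -0.50 on average (exact permutation p = 0.0286, two-sided, the lowest possible with 70 arrangements, and 0.0857 adjusted over the 3 pairs). Bax against Bcl2 moved the other way: it was 0.52, -0.19, 0.14 and -0.48 in Nedd9-WT and 0.29, 0.61, 1.33 and 0.64 in Nedd9-null replicates 1 to 4. The mean difference of 0.72 did not pass, and Nedd9-WT replicate 1 lay among the Nedd9-null tumours (exact permutation p = 0.0571, adjusted 0.0857). Bak1 against Mcl1, a pair known to bind each other, differed by 0.48 with overlapping groups (exact permutation p = 0.200, adjusted 0.200). The mean differences without Nedd9-null replicate 1 were -0.55, 0.86 and 0.66 in the same order. None of the 3 pairs passed after adjustment, which a single pair at the lowest possible p cannot do.

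**Figure D4:**
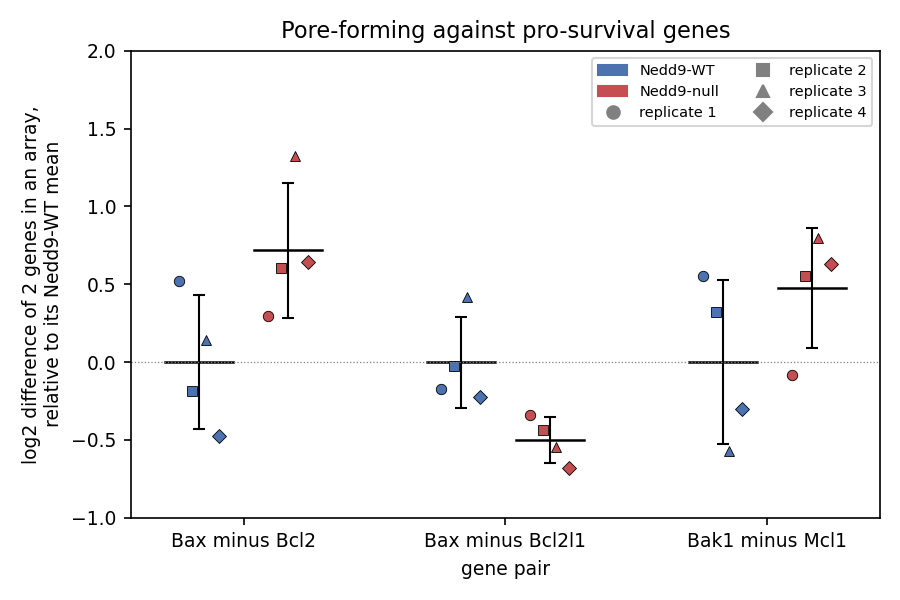
Log2 difference of a pore-forming and a pro-survival gene within each array, relative to its Nedd9-WT mean, for 3 pairs; points are tumours and bars the mean ± SD (n = 4). In Nedd9-null tumours the mean is -0.50 for Bax minus Bcl2l1 and 0.72 for Bax minus Bcl2.

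Further genes of the pathway were read from lists fixed by name. Of 16 other BCL2 family and related genes 13 were measured, 0 passed, 5 differences were positive, and the median was -0.11. Bad, a BH3-only gene that growth factor kinases silence, differed by 0.65 (SE 0.22, limma adjusted p = 0.135). Without Nedd9-null replicate 1, Bad differed by 0.84 (limma adjusted p = 0.0104). It was the member of this list that passed there, where 18.7% of all genes passed in either direction. Becn1, an autophagy gene whose product BCL2 binds, differed by -0.42 (SE 0.14) with no overlap, and Bcl2l13 by -0.39 (SE 0.19).

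Downstream of the pore, 13 of 14 genes of the apoptosome and of mitochondrial factors were measured. Of these 0 passed, and the median difference was -0.02. Endog, a mitochondrial nuclease gene, differed by 1.50 (SE 0.45), Apaf1, the scaffold of the apoptosome, by -0.63 (SE 0.25), and the membrane channel gene Vdac3 by -0.65 (SE 0.30). Without Nedd9-null replicate 1, Endog passed higher and Vdac3 lower, where 18.7% of all genes passed in either direction. None of the 8 inhibitor of apoptosis genes passed (median 0.06). Birc2, the gene of the ubiquitin ligase cIAP1, differed by -0.59 (SE 0.24) and passed lower without that tumour, as did 8.37% of all genes.

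The death receptor route, which joins the family at Bid, had 9 of 10 genes measured, 0 of them past the threshold, and a median of -0.19. Tnfsf10, the gene of the death ligand TRAIL, was -3.14, -4.63, -5.57 and -4.51 in Nedd9-WT and -4.27, -0.12, -0.49 and -0.76 in Nedd9-null replicates 1 to 4. Nedd9-null replicates 2 to 4 were far above all other tumours, and replicate 1 was not. The difference was 3.05 (SE 0.96, limma adjusted p = 0.124), and 4.01 (limma adjusted p = 0.00286) without replicate 1. In that fit Cflar, the gene of the caspase-8 inhibitor c-FLIP, passed lower, and 18.7% of all genes passed in either direction. The TNF receptor gene Tnfrsf1a differed by -0.65 (SE 0.18), with no overlap.

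Upstream regulators of BH3-only genes had 4 of 10 genes with an unadjusted p under 0.05, beside 23.9% of all genes, and 0 passed. Ddit3, the gene of the stress factor CHOP, was 1.35, 1.02, 1.81 and 1.13 in Nedd9-WT and 0.33, 0.04, -0.33 and -0.70 in Nedd9-null replicates 1 to 4. The groups did not overlap, and the difference was -1.49 (SE 0.28, limma adjusted p = 0.0746). Atf4, which encodes the stress factor that induces Ddit3, differed by -0.98 (SE 0.25) and Trp73, a p53 relative also active in ciliated cells, by 1.27 (SE 0.27), both without overlap. Trp53, the gene of p53, differed by -0.52 (SE 0.18, limma adjusted p = 0.149) and did not pass in either fit. Without Nedd9-null replicate 1, 2 of the 10 passed higher (Trp73 and Foxo1) and 3 lower (Ddit3, Atf4 and Foxo3), beside 10.3% and 8.37% of all genes.

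Of 15 other p53 target genes all were measured, 0 passed, 6 were positive, and the median was -0.30. Perp, a p53 target that also builds desmosomes, differed by 2.27 (SE 0.48) and Sesn2, a stress-induced sestrin gene, by -1.16 (SE 0.30), and Zmat3 by -0.70 (SE 0.31). Without Nedd9-null replicate 1, Perp passed higher and Sesn2 lower, where 18.7% of all genes passed in either direction. The p53 targets within the family thus included Pmaip1 at -3.13, Bax at -0.23 and Bbc3 at 0.17.

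Markers of several cell types also differed between the genotypes. Of 10 granulosa and steroidogenic genes 9 were lower in Nedd9-null tumours. Their mean shift (log2, against the Nedd9-WT mean of each gene) was -0.66 to 0.80 in Nedd9-WT tumours and -0.81, -2.90, -5.25 and -5.35 in Nedd9-null replicates 1 to 4. Of the Nedd9-null arrays, Cyp11a1 and Hsd3b1 were well above background on 2 and Fshr on 1. These genes were kept through the Nedd9-WT tumours alone, and their dim values enter the mean shift. Amhr2 and Foxl2 were well above background on all 8 arrays. Foxl2 differed by 0.25 (SE 0.18) and Amhr2 by -3.95 (SE 1.19, limma adjusted p = 0.116). Without Nedd9-null replicate 1, Amhr2 differed by -5.23 (limma adjusted p = 7.48e-04). All 6 markers of ciliated oviduct cells were higher, with mean shifts of 2.05, 4.98, 5.53 and 5.65 in Nedd9-null replicates 1 to 4 and -0.89 to 1.17 in Nedd9-WT tumours. All 9 epithelial markers had higher means too, with a shift of -0.45 in Nedd9-null replicate 1 and 2.19 to 3.03 in the others, against -0.37 to 0.36 in Nedd9-WT. Their differences were uneven, from 0.35 (SE 0.96) for Epcam to 6.69 (SE 2.19) for the oviduct gene Ovgp1. Of the granulosa genes 6 passed lower without Nedd9-null replicate 1, beside 8.37% of all genes. These 6 include Cyp11a1 and Fshr, which were kept through the Nedd9-WT tumours alone, so their calls are no separate support. In the same fit 6 of 6 ciliated and 4 of 9 epithelial genes passed higher, beside 10.3% of all genes. The level of Pmaip1 was -2.93, -2.57, -5.36 and -4.11 in Nedd9-null replicates 1 to 4, with a Nedd9-WT mean of -0.62. These levels are not shifts from the Nedd9-WT mean, so their sizes cannot be set against the granulosa shifts. The part of these cell types in the differences of Pmaip1 and Bcl2 was not tested. In RNA of whole tumours, fewer cells of a type and less RNA per cell cannot be told apart.

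Of 13 leukocyte markers, which matter here because lymphocytes express Bcl2, 7 were higher, and the mean shift ran from -0.75 to 0.40 (Nedd9-WT) and from -0.093 to 0.75 (Nedd9-null). The list pools lymphocyte genes with macrophage genes such as Csf1r, so these values do not stand for lymphocytes alone. Cd3g, well above background on 3 Nedd9-null arrays and 1 Nedd9-WT array, was kept through the Nedd9-null tumours alone. Proliferation markers shifted by -0.40 to 0.37 (Nedd9-WT) and by -0.22 to 0.19 (Nedd9-null). Endothelial markers had lower means in 6 of 7 genes, with shifts from -0.69 to -0.60 (Nedd9-null) and from -0.51 to 0.61 (Nedd9-WT) that did not overlap. Of these genes 1 passed lower without Nedd9-null replicate 1, beside 8.37% of all genes. All 3 measured red blood cell markers had lower means (Nedd9-null -4.17 to -0.83, Nedd9-WT -2.12 to 1.74). Stromal markers (-0.67 to 0.09 against -1.09 to 1.38, in the same order) and smooth muscle markers (-1.27 to 0.86 against -1.85 to 0.75) overlapped. Of the stromal markers 1 passed lower without Nedd9-null replicate 1, beside the same 8.37% of all genes. No gene of these marker lists passed the threshold with all arrays.

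The genes nearest to Pmaip1 and Bcl2 in their profile over the 8 arrays were sought by the root mean square difference of profiles centred on their own means. For Pmaip1, with an SD of 1.96 over the arrays, the nearest was A530020G20Rik, at 0.58 log2 units, followed by the transcripts ENSMUST00000108073 (0.60) and ENSMUST00000108587 (0.67). For Bcl2, with an SD of 0.69, they were Fmn1 (0.19), Sec61a2 (0.19) and ENSMUST00000097723 (0.20). Bcl2l11 (SD 0.53) was nearest to Ago2 (0.10), Ostf1 (0.13) and Ripk1 (0.15), the last a kinase gene of the death receptor route. The nearest gene was Dlat for Bcl2l1 (0.068), the probe target NAP057035-1 for Mcl1 (0.084), Cr1l for Bax (0.076), Atp6v1a for Bak1 (0.088), Pls3 for Bbc3 (0.088), LOC100046749 for Bid (0.13) and 2610037P13Rik for Bmf (0.21).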

How the data were processed

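Total RNA (500 ng) of each tumour was labelled with Cy3 and read on 1-colour Agilent arrays, with the groups and replicate numbers of the sample titles. The deposited spot files hold intensity values, made with Feature Extraction 9.5.3 from Agilent, per the submitters' processing notes. Background subtraction and detrending were done array by array, per the file headers, with no step between arrays. The flags of background, saturation and outliers were used as deposited. A table of log2 values, as deposited by the authors, served as an alternative. Its background step is unknown.

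Control spots (1377 of 44397) and outlier spots were left out, spots of a probe were averaged, and log2 of the signal was taken minus the 75th percentile of each array (2418 to 3552 in signal). Kept probes were complete and well above background on at least 3 arrays of a genotype (31783). A gene was read by its kept probe of highest mean. Names were updated through a RefSeq table of assembly GRCm38.p6, by accession for 26055 probes, by symbol for 3195 and by synonym for 930.

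The 2 genotypes were tested against each other in limma 3.58.1 (R 4.3.3, 2-sided), Benjamini-Hochberg over 25535 genes, threshold 0.05. The script was tested on simulated data. Members, lists and rules were chosen with earlier results of these data known. The text names all members and of each list those past the threshold or up to 3 with the smallest p. Trp53, Foxo1, Foxo3, Cflar and the single marker genes were named after their values were seen. Each sample is 1 tumour, and their number limits the precision.

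Same-numbered tumours of the genotypes deviated with correlations of -0.23 to -0.04. With 4 tumours per genotype these cannot show whether the numbers pair mice, and the labels do not say.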

Additional observations from a re-analysis of the deposited data

Results flagged for a closer look

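Of 24 groups of 4 values (12 probes in 2 genotypes), 1 held a tumour far from the others, and chance marks about 1 in 20 groups. Bcl2l1 on its brighter probe was 3.67 in Nedd9-WT replicate 3, against 4.26 to 4.29 in the other Nedd9-WT tumours.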

How the results depend on the processing

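The number of genes past the threshold, 17 with all arrays, was 0 to 4776 when single arrays were left out. Replicate 1 of Nedd9-null gave 4776 when omitted, replicate 1 of Nedd9-WT gave 42, replicate 4 of Nedd9-null gave 2, and the other 5 omissions gave 0. It was 4 with the median as the scale (2 higher, 2 lower, all genes shifted to a median of -0.16) and 4 with quantile normalization (3 higher, 1 lower). It was 7 with probes above background on all 8 arrays, 0 with the replicate block and 5983 with array weights. With normexp background correction it was 22 (18 higher, 4 lower), and with the deposited log2 values it was 19 (14 higher, 5 lower). The number of members past it was 0 to 2 when single arrays were left out, 2 with array weights and 0 in the other alternatives. With array weights, Pmaip1 (-3.19, limma adjusted p = 0.0226) and Bcl2 (-1.17, limma adjusted p = 0.0330) passed. Over all 17 alternatives the difference of Pmaip1 was -3.52 to -2.59 (limma adjusted p = 0.0204 to 0.239) and that of Bcl2 -1.17 to -0.72 (0.0330 to 0.344). Bbc3 turned to -0.024 with the median as the scale and ranged from -0.051 to 0.35 without single arrays. Bmf turned to -0.13 with array weights and ranged from -0.14 to 0.45. The cause was not tested. The other 8 members kept their sign in all 17. The pairs of genes were run under 14 alternatives and kept their sign. None passed, but the smallest p these designs allow says nothing about their stability. The replicate block left Pmaip1 at -3.13 (limma adjusted p = 0.219) and changed no call of a member; with it the pairs' exact p were 0.125 to 0.375. Without single arrays, the counts in the pathway and marker lists were 0 to 1 for the other BCL2 family, inhibitors of apoptosis, endothelium and stroma, 0 to 2 for the apoptosome, death receptor route and p53 targets, 0 to 4 for epithelium, 0 to 5 for upstream regulators, and 0 to 6 for granulosa and ciliated cell markers. Slide could not be used as a block, since each genotype lay on 1.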
